A study of Homo sapiens with 6 samples.

Results

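The genes described here are 41 genes of DNA repair and of the DNA damage checkpoint, taken by symbol from a fixed list: 7 of base excision repair and strand-break sealing, 3 of mismatch repair, 6 of nucleotide excision repair, 14 of double-strand break repair, 3 of the Fanconi pathway and 8 of the checkpoint. All 41 were found among the 23619 gene symbols of each library, and all 41 were among the 11307 genes tested. The genes were measured by RNA sequencing in HG3, a lymphoblastoid B cell line that serves as a model of chronic lymphocytic leukaemia. Fludarabine-resistant pools 17, 18 and 28, labelled as treated, were set against control pools 17, 18 and 28, called parental cells in the design text, with 1 library of total RNA per pool and group. The title of the series speaks of transposon mutagenesis, in which a mobile element is inserted at many places in the genome. Drug dose, time in the drug and whether the control pools carried the transposon are not stated in the labels. All libraries came from the same cell line, so differences between people were not sampled. In cultures of this kind a lower value can come from fewer cells that express a gene or from less RNA in each cell, and these cannot be told apart.

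Fludarabine is a purine nucleoside analogue whose triphosphate is built into DNA, where it stops the polymerase, and it also lowers the supply of deoxynucleotides. Base excision repair removes single damaged bases, mismatch repair corrects copying errors, and nucleotide excision repair cuts out short stretches around bulky damage. Broken ends are rejoined by homologous recombination or end joining, the Fanconi pathway handles cross-linked strands, and checkpoint kinases halt the cell cycle while repair goes on. Many of these genes are transcribed most in cells that are copying their DNA.

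Values are FPKM, fragment counts scaled by transcript length and by library size, so levels can be compared between genes per unit of length. Differences are resistant minus control on the log2(FPKM + 1) scale, which understates the differences of genes with low FPKM. The test was limma across all 11307 genes with Benjamini-Hochberg adjustment and a threshold of 0.05. It compared the groups without a term for the pool, so its p-values are unpaired. Each pool has 1 resistant and 1 control library, so the difference within a pool has no test.

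Genes at or above 1 FPKM numbered 10936 to 11331 per library, and relative depth ran from 1 in control 17 to 1.31 in resistant 28. All 8 B cell markers were expressed, and their summed level was 2029 to 2947 FPKM in resistant libraries and 2124 to 2633 FPKM in control libraries. All 5 T cell markers, 3 of 5 myeloid markers (CD14, LYZ and MPO) and 4 of 5 fibroblast or epithelial markers were at or under 1 FPKM in every library. The summed myeloid markers were 2.41 to 8.22 FPKM in resistant libraries and 2.38 to 3.36 FPKM in control libraries. The summed fibroblast or epithelial markers were 0.51 to 2.87 FPKM in resistant libraries and 2.25 to 5.79 FPKM in control libraries. Resistant 18 stood apart by limma's library weight, which falls as a library departs from the mean of its group. Resistant 18 had a weight of 0.162, against 1.03 to 1.93 for the other libraries. Results are therefore given with and without it where it decides them.

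No repair or checkpoint gene passed the test between resistant and control libraries (0 of 41), where 4 of all 11307 genes passed (0.0354%). Their adjusted p-values in limma ran from 0.235 to 1. At an unadjusted p under 0.05 there were 4 members, APEX1, ERCC5, XRCC4 and PRKDC, which is 9.76% of the members, against 13.1% of all genes. The members' differences ran from -0.75 to 1.12, with 31 above (75.6%) and 10 below 0 and a median of 0.11, beside 51.6% above 0 and a median of 0.01 over all genes. Without resistant 18 the members' median was -0.12.

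The pools went different ways. In pool 18 the members' median difference was 0.45 and 34 of 41 lay above 0. It was -0.03 in pool 17 and -0.18 in pool 28, where 16 and 15 members lay above 0. Over all tested genes the medians were -0.03, 0.05 and -0.01 in pools 17, 18 and 28. Of these 11307 genes, 5337, 6039 and 5579 lay above 0 in pools 17, 18 and 28. Resistant 18 had the highest FPKM of the 6 libraries for 30 of the 41 members (73.2%), against 35.4% of all genes. It had the lowest for 2 members (4.88%), ERCC2 and H2AFX, against 25.3% of all genes. In pool 18, 17 members (41.5%) had a difference over 0.5, beside 21.3% of all genes. The pattern of higher in pool 18 and lower in pools 17 and 28 was shown by 17 members (41.5%) and by 17.6% of all genes.

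**Figure D1:**
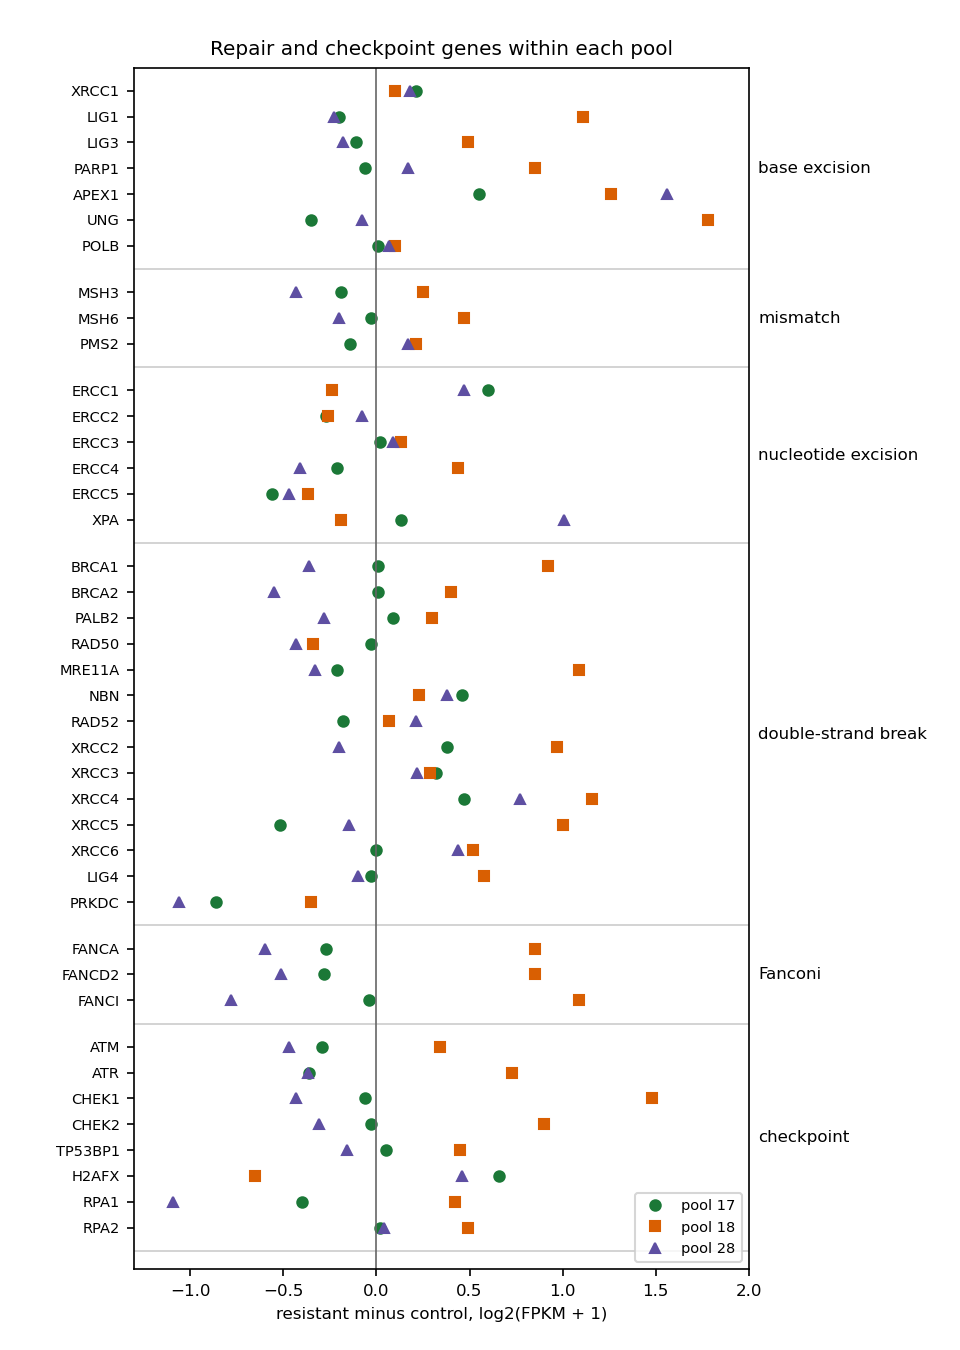
Differences within each pool (resistant minus control, log2(FPKM + 1), horizontal axis) for the 41 members, grouped by pathway; circles are pool 17, squares pool 18 and triangles pool 28, each from 1 library per group. Pool 18 lies to the right of the other pools for most members outside nucleotide excision repair, while ERCC5 and PRKDC lie left of 0 and APEX1, NBN and XRCC4 right of 0 in all 3 pools.

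Genes of DNA synthesis and division had the same layout. Of 33 S phase genes, 32 were highest in resistant 18, and their median differences were -0.13, 0.93 and -0.28 in pools 17, 18 and 28. Of 30 genes of G2 and mitosis, 28 were highest in resistant 18, with medians of -0.11, 0.89 and -0.40. MKI67, which encodes the proliferation antigen Ki-67, did not follow its list: it had 5.29, 4.83 and 3.27 FPKM in resistant pools 17, 18 and 28, against 7.71, 9.85 and 10.1 FPKM in control pools 17, 18 and 28. All 3 resistant libraries lay below all 3 controls for MKI67, with a difference of -0.91 (SE 0.20, limma adjusted p = 0.182). CDT1, which licenses replication origins, had 28.9, 27.8 and 15.9 FPKM in resistant pools and 35.4, 41.8 and 34.6 FPKM in control pools. CHAF1A, a chromatin assembly factor, had 17.2, 20.7 and 13.9 FPKM in resistant pools and 16.3, 8.59 and 9.12 FPKM in control pools. CENPA, the centromeric histone, had 9.09, 19.9 and 6.42 FPKM in resistant pools and 6.01, 7.65 and 6.71 FPKM in control pools. None of these 4 genes, picked from their lists by smallest unadjusted p, passed. That choice favours groups without overlap. All 3 resistant libraries lay below all 3 controls for CDT1 too, as they did for 11.1% of all genes. The groups overlapped for CHAF1A and CENPA. Whether the state of the cell cycle has a part in the members' differences was not tested.

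**Figure D2:**
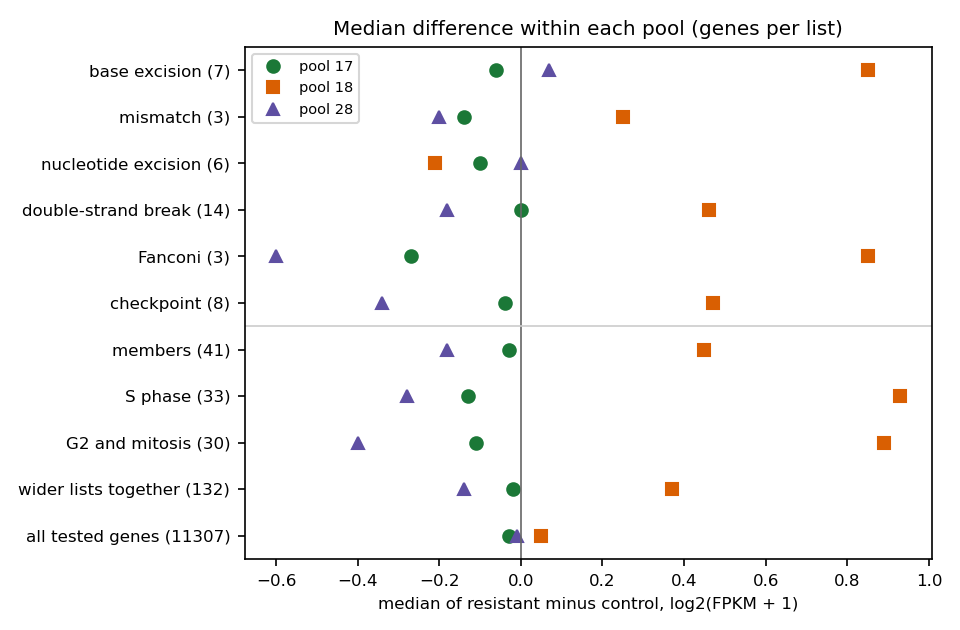
Median difference within each pool (resistant minus control, log2(FPKM + 1), horizontal axis) for the 6 pathway groups, all 41 members, the S phase and G2 and mitosis lists, the wider repair lists and all tested genes, with the number of genes in brackets; each point is a median over genes from 1 library per group. The squares of pool 18 lie at 0.85 for base excision and the Fanconi pathway and at 0.93 for S phase genes, whereas nucleotide excision lies at -0.21.

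The promoters of the members were read for the sites of factors that act on genes of the cell cycle. Windows of 250 bases before to 50 bases after the start were held for 35 of the 41 members in RefSeq on GRCh38.p14. POLB, NBN, XRCC5, PRKDC, FANCI and RPA2 were not among them. A gene was counted if any of its windows held the string looked for. E2F strings (TTTCCCGC, TTTGGCGC, TTTCGCGC or TTTGCCGC, either strand) were found in 9 of 35 members (25.7%): FANCA, FANCD2, LIG1, MSH3, MSH6, PMS2, UNG, XRCC2 and XRCC6. The same strings were found in 3.99% of the 27305 genes with a window, in 7.14% of the 8813 tested genes and in 15 of 28 S phase genes (53.6%). All 9 belonged to the 25 members with a window that were highest in resistant 18, and 0 of the other 10 members held one. This split was made with the values of these same libraries, most members with a window fell on its larger side, and the contrast was not tested. The 9 had pool 18 differences from 0.21 (PMS2) to 1.78 (UNG). CHEK1 (1.48), APEX1 (1.26) and XRCC4 (1.16), among others, held no E2F string. The NF-Y string CCAAT was found in 21 of 35 members (60%) and in 44.2% of tested genes, and TTTGAA, a form of the CHR element, in 5 of 35 (14.3%) and in 13.8%. No 2 matches of different motifs overlapped in the members. Bases just after the start were found in an annotated transcript of the gene for 44 of the 51 member windows. They were not found for the only windows of FANCD2, PARP1 and XRCC3, which are counted above. A match is a string of letters and was not tested as a binding site.

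4 windows that hold an E2F string are printed first, as those of base excision, recombination and Fanconi members with pool 18 differences from 0.85 (FANCA) to 1.78 (UNG). Those of CHEK1 and APEX1 follow, which held no E2F string. Each reads 5′ to 3′ along the gene's strand, with the E2F string in capitals in UNG, XRCC2, LIG1 and FANCA and the CCAAT string, on either strand, in capitals in CHEK1 and APEX1. UNG lies at chr12:109097922-109098221 (plus strand), XRCC2 at chr7:152676092-152676391 (minus strand) and LIG1 at chr19:48170295-48170594 (minus strand). Counted from the start site, the string begins at position -63 in UNG, 22 in XRCC2, -114 in LIG1 and -172 in FANCA, and the CCAAT string at -105 in CHEK1 and -87 in APEX1. FANCA lies at chr16:89816598-89816897 (minus strand), CHEK1 at chr11:125625979-125626278 (plus strand) and APEX1 at chr14:20454976-20455275 (plus strand). UNG had 2 windows, of which that with the E2F string is printed, and CHEK1 had 3, of which a single window is printed.
UNG: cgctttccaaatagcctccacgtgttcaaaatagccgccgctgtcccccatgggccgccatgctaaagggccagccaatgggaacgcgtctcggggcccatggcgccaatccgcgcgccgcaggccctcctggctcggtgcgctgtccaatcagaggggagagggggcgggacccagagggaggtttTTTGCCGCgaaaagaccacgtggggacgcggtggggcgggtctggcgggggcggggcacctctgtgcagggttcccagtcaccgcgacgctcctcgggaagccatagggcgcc
XRCC2: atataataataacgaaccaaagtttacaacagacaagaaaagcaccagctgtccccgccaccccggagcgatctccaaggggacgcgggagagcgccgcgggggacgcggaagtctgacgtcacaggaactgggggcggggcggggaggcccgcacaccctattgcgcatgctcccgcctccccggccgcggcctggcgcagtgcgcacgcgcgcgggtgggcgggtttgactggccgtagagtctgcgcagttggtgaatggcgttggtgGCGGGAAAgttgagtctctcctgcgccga
LIG1: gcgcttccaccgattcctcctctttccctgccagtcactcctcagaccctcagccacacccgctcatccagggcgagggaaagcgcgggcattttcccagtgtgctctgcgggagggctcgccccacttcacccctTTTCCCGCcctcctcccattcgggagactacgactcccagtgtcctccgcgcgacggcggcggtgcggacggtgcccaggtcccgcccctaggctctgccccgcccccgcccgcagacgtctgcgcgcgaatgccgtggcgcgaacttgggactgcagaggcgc
FANCA: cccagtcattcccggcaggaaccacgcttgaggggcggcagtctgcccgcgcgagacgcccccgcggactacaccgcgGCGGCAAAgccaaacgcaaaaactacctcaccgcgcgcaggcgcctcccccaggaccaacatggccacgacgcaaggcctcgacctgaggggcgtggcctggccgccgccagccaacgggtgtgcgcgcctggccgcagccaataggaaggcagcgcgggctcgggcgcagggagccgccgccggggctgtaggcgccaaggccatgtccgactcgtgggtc
CHEK1: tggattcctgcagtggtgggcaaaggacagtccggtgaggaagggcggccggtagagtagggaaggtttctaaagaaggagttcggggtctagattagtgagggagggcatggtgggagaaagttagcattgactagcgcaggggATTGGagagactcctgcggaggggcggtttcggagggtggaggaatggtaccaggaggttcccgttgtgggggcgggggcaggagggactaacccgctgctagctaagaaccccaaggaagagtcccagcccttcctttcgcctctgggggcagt
APEX1: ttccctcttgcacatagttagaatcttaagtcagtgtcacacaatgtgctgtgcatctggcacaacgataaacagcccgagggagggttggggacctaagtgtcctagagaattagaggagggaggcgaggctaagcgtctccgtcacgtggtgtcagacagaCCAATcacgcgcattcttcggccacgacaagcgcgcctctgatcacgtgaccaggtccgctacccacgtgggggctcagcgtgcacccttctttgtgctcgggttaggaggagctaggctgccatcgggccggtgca

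Base excision repair held the member with the largest difference, APEX1, and the member with the largest difference within pool 18, UNG. All 7 genes of the group had differences above 0 (0.06 to 1.12, median 0.23), 0 of 7 passed, and 6 of 7 were highest in resistant 18. Without resistant 18 the group's median was -0.01. The group's medians were -0.06, 0.85 and 0.07 in pools 17, 18 and 28.

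APEX1 encodes the main endonuclease that cuts DNA at sites that have lost a base. It had 89.8, 102 and 75.0 FPKM in resistant pools 17, 18 and 28, against 60.9, 42.2 and 24.8 FPKM in control pools 17, 18 and 28. All 3 resistant libraries lay above all 3 controls. Its mean was 89.0 ± 13.6 FPKM in resistant libraries and 42.6 ± 18.0 FPKM in control libraries (SD, n = 3 each), 2.09-fold higher, with a difference of 1.12 (SE 0.32, limma adjusted p = 0.235). Within pools the difference was 0.55, 1.26 and 1.56 in pools 17, 18 and 28, and with GC and length trends removed it was 0.53, 1.28 and 1.42.

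UNG encodes uracil-DNA glycosylase, which removes uracil from DNA. It had 8.11, 33.1 and 8.51 FPKM in resistant pools 17, 18 and 28, against 10.6, 8.93 and 9.05 FPKM in control pools. Resistant 18 was 3.48-fold above the control mean, while resistant 17 and 28 lay below all 3 controls. The difference over the pools was 0.45 (SE 0.49, limma adjusted p = 0.736) with resistant 18 and -0.17 without it.

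PARP1, which encodes the poly(ADP-ribose) polymerase that marks strand breaks, had 74.4, 119 and 71.0 FPKM in resistant pools and 77.5, 65.6 and 62.9 FPKM in control pools. Only resistant 18 lay outside the range of the controls on the high side, and the difference was 0.32 (SE 0.24, limma adjusted p = 0.597) with it and 0.09 without it. LIG1, the ligase that joins Okazaki fragments, had 30.8, 54.9 and 23 FPKM in resistant pools and 35.6, 24.9 and 27.2 FPKM in control pools. Resistant 18 was the highest library and resistant 28 the lowest. LIG3, the ligase that works with XRCC1, had 10.9, 17.8 and 9.75 FPKM in resistant pools and 11.9, 12.4 and 11.2 FPKM in control pools. Again resistant 18 was highest, with resistant 17 and 28 below all controls.

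XRCC1, the scaffold on which break repair enzymes assemble, had 21.6, 14 and 12.6 FPKM in resistant pools and 18.6, 13.0 and 11.0 FPKM in control pools. POLB, the gap-filling polymerase of the pathway, had 25.3, 28.5 and 23.7 FPKM in resistant pools and 25.0, 26.5 and 22.6 FPKM in control pools. The groups overlapped for both genes. Both were slightly higher in the resistant library of every pool, by 0.10 to 0.21 for XRCC1 and by 0.01 to 0.10 for POLB.

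The 3 mismatch repair genes differed little over the pools (-0.12 to 0.08, 0 of 3 passed), and all 3 were highest in resistant 18. Their median was 0.08 with resistant 18 and -0.15 without it. MSH3, which recognises larger loops, had 7.78, 11.7 and 7.04 FPKM in resistant pools and 9.05, 9.66 and 9.83 FPKM in control pools. MSH6, which recognises single mismatches, had 20.9, 32.0 and 18.4 FPKM in resistant pools and 21.4, 22.8 and 21.3 FPKM in control pools. For both, resistant 18 lay above and resistant 17 and 28 below all 3 controls. MSH3 had a difference of -0.12 (SE 0.20, limma adjusted p = 0.836). PMS2, an endonuclease of the pathway, had 8.36, 11.1 and 8.60 FPKM in resistant pools and 9.34, 9.48 and 7.54 FPKM in control pools. Its groups overlapped, with a difference of 0.08 (SE 0.18, adjusted p = 0.885) with resistant 18 and -0.04 without it. The FPKM of PMS2 is uncertain because near-identical pseudogene copies share its reads.

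Nucleotide excision repair did not share the layout of the other groups. Of its 6 genes, 1 (ERCC4) was highest in resistant 18, the group's median was -0.10, -0.21 and 0.00 in pools 17, 18 and 28, and 0 of 6 passed. ERCC5, which encodes XPG, the nuclease that cuts on the 3′ side of the damage, had 15.1, 14 and 13.2 FPKM in resistant pools, against 22.7, 18.4 and 18.7 FPKM in control pools. All 3 resistant libraries lay below all 3 controls, with means of 14.1 ± 0.966 FPKM in resistant libraries and 19.9 ± 2.42 FPKM in control libraries (SD, n = 3 each). The difference was -0.46 (SE 0.16, limma adjusted p = 0.294), and within pools it was -0.56, -0.37 and -0.47. ERCC5 shares exons on the same strand with the readthrough gene BIVM-ERCC5, so its reads may have been split.

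ERCC2, which encodes XPD, a helicase of transcription factor TFIIH, had 10.4, 10 and 10.5 FPKM in resistant pools, against 12.7, 12.2 and 11.2 FPKM in control pools. Its groups did not overlap either, though the difference was small at -0.20 (SE 0.14, limma adjusted p = 0.567). All 3 resistant libraries lay below all 3 controls for 2 of 41 members (4.88%), ERCC2 and ERCC5, and for 11.1% of all genes. ERCC3, the other TFIIH helicase, had 27.5, 25.1 and 27.1 FPKM in resistant pools and 27.2, 22.9 and 25.4 FPKM in control pools, with overlap.

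ERCC1 encodes the non-catalytic partner of the nuclease that cuts on the 5′ side. It had 52.7, 37.3 and 39.2 FPKM in resistant pools and 34.3, 44.2 and 28.0 FPKM in control pools. It was higher in the resistant library of pools 17 and 28 (0.60 and 0.47) and lower in that of pool 18 (-0.24), the reverse of the pattern that 17 of 41 members showed. The difference over the pools was 0.28 (SE 0.23, limma adjusted p = 0.635), 0.13 without resistant 17 and 0.12 without control 28. Exons of CD3EAP on the opposite strand overlap it. ERCC4, which encodes the nuclease XPF itself, had 1.97, 3.28 and 2.13 FPKM in resistant pools and 2.44, 2.15 and 3.16 FPKM in control pools. XPA, which verifies the damage, had 7.18, 4.94 and 7.04 FPKM in resistant pools and 6.45, 5.78 and 2.99 FPKM in control pools. Resistant 17 and 28 lay above all 3 controls for XPA, and control 28 was the lowest library. The difference was 0.32 (SE 0.27, adjusted p = 0.655), and without pool 28 it was -0.03.

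Among the 14 double-strand break genes, 11 had differences above 0 (range -0.75 to 0.80, median 0.17), 11 were highest in resistant 18, and 0 passed. Without resistant 18 the median was -0.09. Their medians were 0.00, 0.46 and -0.18 in pools 17, 18 and 28. End joining genes held both ends of the range.

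XRCC4 encodes the partner of DNA ligase IV. It had 8.99, 16.9 and 8.12 FPKM in resistant pools, against 6.22, 6.99 and 4.36 FPKM in control pools. All 3 resistant libraries lay above all 3 controls, with means of 11.3 ± 4.84 FPKM in resistant libraries and 5.86 ± 1.35 FPKM in control libraries (SD, n = 3 each). The difference was 0.80 (SE 0.29, limma adjusted p = 0.321) with resistant 18 and 0.50 without it. Together with APEX1 it made 2 of 41 members (4.88%) whose resistant libraries all lay above the controls, against 10.1% of all genes. Resistant 17 and 28 both lay above all controls for 3 members (7.32%), APEX1, XPA and XRCC4, and for 20.1% of all genes.

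PRKDC encodes the catalytic subunit of DNA-dependent protein kinase, which is recruited to broken ends by Ku. It had 13.2, 24.9 and 15.3 FPKM in resistant pools, against 24.8, 31.8 and 33.0 FPKM in control pools. Each resistant library lay below the control of its own pool, and the groups overlapped only where resistant 18 met control 17. The means were 17.8 ± 6.20 FPKM in resistant libraries and 29.9 ± 4.45 FPKM in control libraries (SD, n = 3 each), a difference of -0.75 (SE 0.25, limma adjusted p = 0.294). With limma's weights, which gave resistant 18 little influence, the difference was -1.01 and limma's adjusted p 0.0352. That was the lowest over the settings tried (0.0352 to 0.923). With these weights 301 of all 11307 genes passed, where 4 passed without them. PRKDC has the longest transcript of the members, 13509 bases, and with GC and length trends removed its differences were -0.59, -0.23 and -0.65 in pools 17, 18 and 28.

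XRCC5 and XRCC6 encode the Ku proteins that bind broken ends, and they had the highest mean FPKM of the members. XRCC5 had 80.5, 228 and 92.0 FPKM in resistant pools and 116, 114 and 102 FPKM in control pools. Resistant 18 was at 2.06-fold the control mean, and the other resistant libraries lay below all controls. XRCC6 had 319, 423 and 364 FPKM in resistant pools and 320, 294 and 268 FPKM in control pools, with resistant 18 and 28 above all controls. LIG4, the ligase of end joining, had 2.80, 5.62 and 3.39 FPKM in resistant pools and 2.89, 3.44 and 3.72 FPKM in control pools, so that only resistant 18 lay above the controls.

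MRE11A, RAD50 and NBN encode the complex that senses and trims broken ends, and they did not move alike. MRE11A, its nuclease, had 4.96, 11.1 and 3.92 FPKM in resistant pools and 5.91, 4.69 and 5.16 FPKM in control pools. RAD50, its tether, had 11.1, 11.5 and 10.3 FPKM in resistant pools and 11.3, 14.8 and 14.1 FPKM in control pools. Resistant 18 was highest for MRE11A, whereas all resistant libraries lay near or below the lowest control for RAD50. NBN, its link to ATM, had 72.9, 73.3 and 60.8 FPKM in resistant pools, against 52.6, 62.3 and 46.4 FPKM in control pools. NBN was higher in the resistant library of every pool (0.46, 0.23 and 0.38 in pools 17, 18 and 28), though resistant 28 lay below control 18. Its means were 69.0 ± 7.11 FPKM in resistant libraries and 53.8 ± 7.99 FPKM in control libraries (SD, n = 3 each), a difference of 0.36 (SE 0.18, limma adjusted p = 0.445).

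Most genes of homologous recombination had low levels. BRCA1, which promotes trimming of ends, had 7.04, 14 and 5.35 FPKM in resistant pools and 6.96, 6.96 and 7.14 FPKM in control pools. BRCA2, a mediator of strand exchange, had 2.03, 3.93 and 1.61 FPKM in resistant pools and 2, 2.73 and 2.81 FPKM in control pools. PALB2, which joins these proteins, had 4.38, 5.92 and 4.25 FPKM in resistant pools and 4.06, 4.62 and 5.36 FPKM in control pools. Resistant 18 was the highest library for all 3 and resistant 28 the lowest for BRCA1 and BRCA2. XRCC2, a recombination factor, had 2.35, 4.21 and 1.27 FPKM in resistant pools and 1.58, 1.66 and 1.61 FPKM in control pools. XRCC3, another, had 13.8, 15.4 and 11.9 FPKM in resistant pools and 10.8, 12.4 and 10.1 FPKM in control pools. XRCC3 was higher in the resistant library of every pool, but resistant 28 lay below control 18. RAD52, which anneals single strands, had 2.10, 2.16 and 2.63 FPKM in resistant pools and 2.52, 2.01 and 2.14 FPKM in control pools, with overlap.

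**Figure D3:**
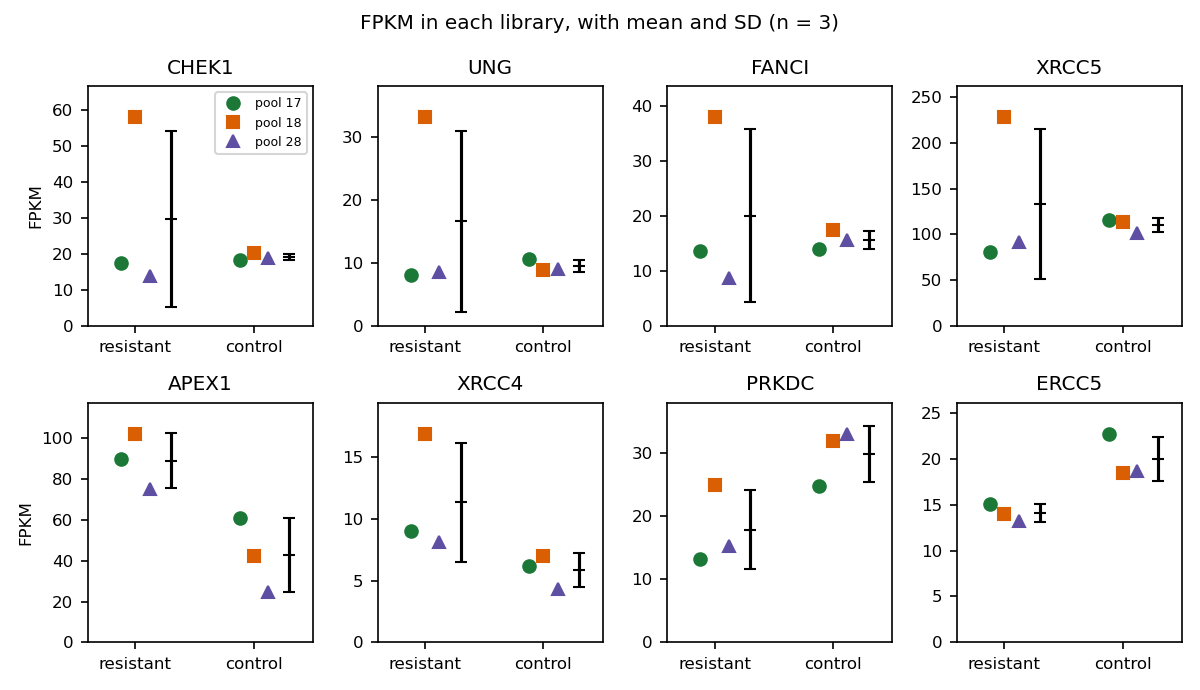
FPKM in each library (vertical axes, each from 0) for 8 members, resistant libraries left of controls; circles are pool 17, squares pool 18 and triangles pool 28, and the bar beside each group is its mean ± SD (n = 3). For CHEK1, UNG, FANCI and XRCC5 resistant 18 stands alone above the other 5 libraries; for APEX1 and XRCC4 all resistant libraries lie above the controls, and for ERCC5 all lie below them.

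Of the 6 groups, the 3 Fanconi genes had the widest spread between pools. Their medians were -0.27, 0.85 and -0.60 in pools 17, 18 and 28. The 16 further Fanconi genes of the wider list had medians of -0.01, 0.29 and -0.19 in these pools. FANCD2, which is ubiquitinated at stalled forks, had 9.01, 23.3 and 8.48 FPKM in resistant pools and 11.2, 12.4 and 12.5 FPKM in control pools. FANCI, its partner, had 13.6, 38.0 and 8.66 FPKM in resistant pools and 14.1, 17.4 and 15.6 FPKM in control pools. FANCA, a subunit of the core complex that acts on that pair, had 6.44, 16.0 and 5.42 FPKM in resistant pools and 8, 8.43 and 8.76 FPKM in control pools. In all 3, resistant 18 lay above and resistant 17 and 28 below every control. The differences over the pools were 0.02 for FANCD2 (SE 0.36, limma adjusted p = 0.989), 0.09 for FANCI (SE 0.47, adjusted p = 0.960) and -0.01 for FANCA (SE 0.35, adjusted p = 0.995). Without resistant 18 they were -0.42 for FANCD2 and -0.48 for FANCI.

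Of the 8 checkpoint genes, 6 were highest in resistant 18 and 0 passed, and their medians were -0.04, 0.47 and -0.34 in pools 17, 18 and 28. Over the pools the median was 0.14 with resistant 18 and -0.20 without it. CHEK1, the kinase downstream of ATR that slows replication, had 17.5, 57.9 and 13.8 FPKM in resistant pools and 18.3, 20.1 and 18.9 FPKM in control pools. Resistant 18 was at 3.03-fold the control mean, and resistant 17 and 28 lay below all 3 controls. Its difference was 0.33 (SE 0.48, limma adjusted p = 0.812) with resistant 18 and -0.28 without it. CHEK2, the kinase downstream of ATM, had 13.2, 24.7 and 12.0 FPKM in resistant pools and 13.4, 12.8 and 15.1 FPKM in control pools. Only resistant 18 lay above the controls, and the difference was 0.19 (SE 0.27, adjusted p = 0.810) with resistant 18 and -0.12 without it.

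ATM, the kinase that answers double-strand breaks, had 6.45, 10.3 and 6.02 FPKM in resistant pools and 8.13, 7.96 and 8.70 FPKM in control pools. ATR, the kinase that answers bare single strands, had 3.48, 9.14 and 3.91 FPKM in resistant pools and 4.76, 5.11 and 5.32 FPKM in control pools. Both had resistant 18 above and resistant 17 and 28 below every control. TP53BP1, which binds chromatin at breaks and steers repair to end joining, had 6.93, 11.1 and 6.86 FPKM in resistant pools and 6.64, 7.79 and 7.78 FPKM in control pools. Only resistant 18 lay outside the control range.

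H2AFX, the histone variant that is phosphorylated around breaks, was arranged the other way. It had 52.4, 23.5 and 33.7 FPKM in resistant pools and 32.7, 37.4 and 24.2 FPKM in control pools. Resistant 18 was the lowest library and resistant 17 the highest, with differences of 0.66, -0.65 and 0.46 in pools 17, 18 and 28. Over the pools it was 0.16 (SE 0.31, limma adjusted p = 0.865). H2AFX has the highest GC content of the members (66.4%), and with GC and length trends removed the differences were 0.45, -0.22 and 0.14.

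RPA1 and RPA2 encode subunits of the protein that coats single-stranded DNA. RPA1 had 10.3, 28.2 and 13.8 FPKM in resistant pools and 14, 20.9 and 30.5 FPKM in control pools. Resistant 17 and 28 lay below all controls, but the controls themselves were widely spread, and the difference was -0.36 (SE 0.40, limma adjusted p = 0.746). RPA2 had 80, 120 and 82.8 FPKM in resistant pools and 78.7, 85.7 and 80.3 FPKM in control pools. Only resistant 18 lay above the controls, and the difference was 0.18 (SE 0.20, adjusted p = 0.742) with resistant 18 and -0.002 without it.

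Across the members, those that kept 1 direction in every pool were few. The difference was above 0 in all 3 pools for 8 members (19.5%), XRCC1, APEX1, POLB, ERCC3, NBN, XRCC3, XRCC4 and RPA2, against 18.9% of all genes. It was below 0 in all 3 pools for 4 members (9.76%), ERCC2, ERCC5, RAD50 and PRKDC, against 18.7% of all genes. Both shares were near to or under the background. The members' differences in pools 17 and 28 ran together (Spearman 0.66, Pearson 0.70 over 41 genes), while those of pool 18 ran with neither (Spearman -0.10 with pool 17 and -0.12 with pool 28). Over all 11307 genes the Spearman coefficients were 0.52 for pools 17 and 28, 0.08 for pools 17 and 18 and 0.16 for pools 18 and 28. With GC and length trends removed, the members' Spearman coefficient for pools 17 and 28 was 0.56. These are correlations across genes of single libraries, and genes are not independent replicates.

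Resistant 17 and 28 both lay below all 3 controls for 17 of 41 members (41.5%), beside 25.1% of all genes. The differences in these pools went with transcript length. In pool 28 longer members had lower differences (Spearman -0.72 over 41 members, against -0.31 over 10411 genes with a length), as they did in pool 17 (-0.48, against -0.20). In pool 18 the coefficients were -0.03 over the members and 0.05 over the genes. With GC and length trends removed, the count was 10 of 41 (24.4%), next to 22.2% of all genes. The members' medians were then 0.01, 0.36 and -0.08 in pools 17, 18 and 28, and 27 of 41 (65.9%) were still highest in resistant 18, against 32.5% of all genes.

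**Figure D4:**
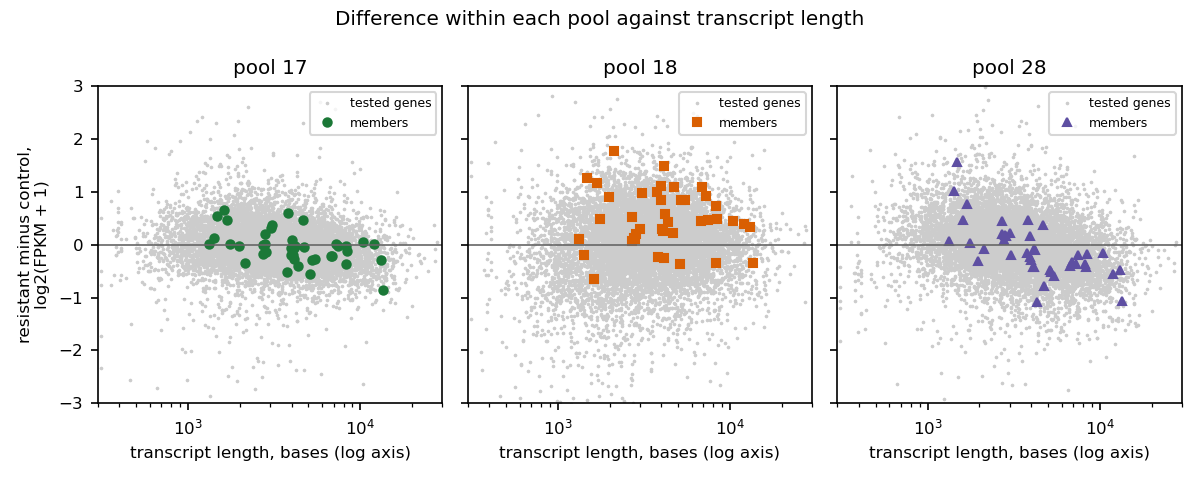
Difference within each pool (resistant minus control, log2(FPKM + 1), vertical axis, cut at the top and bottom of the panel) against transcript length in bases (horizontal log axis), for all tested genes with a length in grey and the 41 members in colour, 1 library per group and pool. The members slope downward with length in pools 17 and 28 (Spearman -0.48 and -0.72) and not in pool 18 (-0.03).

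The members' neighbours along the chromosomes were also read. For each member the median difference of up to 20 tested neighbours on either side was computed; 5 members near a chromosome end (APEX1, RAD52, FANCA, XRCC2 and XRCC3) had 24 to 35 neighbours in all and the others 40. These medians ran from -0.24 to 0.18 in pool 17, from -0.28 to 0.33 in pool 18 and from -0.19 to 0.29 in pool 28. In pool 18 they were over 0.3 for 4 members, LIG3, MSH6, BRCA1 and RPA1 (0.32, 0.31, 0.33 and 0.31), whose own differences were 0.49, 0.47, 0.92 and 0.42.

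A wider list of genes of these pathways was read in the same way. Of 134 further repair, checkpoint and lesion bypass genes, 132 were tested, 0 passed, 87 (65.9%) lay above and 45 below 0, and 11 (8.33%) had an unadjusted p under 0.05. Over all genes 51.6% lay above 0 and 13.1% had an unadjusted p under 0.05. The medians of these 132 genes were -0.02, 0.37 and -0.14 in pools 17, 18 and 28. Resistant 18 was highest for 84 of them (63.6%), against 35.4% of all genes. The 7 further mismatch repair genes were all highest in resistant 18, and in each the difference was above 0 in pool 18 and below 0 in pools 17 and 28. PCNA, the sliding clamp, had 132, 214 and 113 FPKM in resistant pools and 144, 169 and 180 FPKM in control pools. Resistant 18 was highest for PCNA, and resistant 17 and 28 lay below all controls.

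The genes named from these lists were picked by smallest unadjusted p, a choice that favours groups without overlap. Over all genes, the resistant libraries all lay above all controls for 10.1% and below them for 11.1%. The further nucleotide excision genes held the smallest adjusted p of these lists. XAB2, an XPA-binding protein that also belongs to a splicing complex, had 11.4, 8.06 and 11.2 FPKM in resistant pools, against 19.4, 23.8 and 31.0 FPKM in control pools. The groups did not overlap, with a difference of -1.19 (SE 0.22, limma adjusted p = 0.173). CETN2, a centrin that joins the XPC complex, had 8.11, 14.8 and 8.19 FPKM in resistant pools and 6.79, 6.37 and 4.24 FPKM in control pools, a difference of 0.71 (SE 0.27, adjusted p = 0.340). In base excision, APTX, which removes stalled ligation intermediates, had 18.1, 26.5 and 21.4 FPKM in resistant pools and 16.6, 14.7 and 14.6 FPKM in control pools, without overlap (0.49, SE 0.18, adjusted p = 0.329).

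In the further checkpoint genes, MDC1, the adaptor that binds phosphorylated H2AX, had 1.26, 1.02 and 1.13 FPKM in resistant pools, against 1.94, 2.67 and 3.04 FPKM in control pools. CDC25B, a phosphatase that starts mitosis, had 6.84, 7.36 and 5.25 FPKM in resistant pools, against 8.93, 12.4 and 11.3 FPKM in control pools. All resistant libraries lay below all controls for both, with differences of -0.72 (SE 0.18, limma adjusted p = 0.197) and -0.66 (SE 0.19, adjusted p = 0.232). REV3L, the catalytic subunit of lesion bypass polymerase zeta, had 4.27, 5.51 and 4.50 FPKM in resistant pools, against 6.18, 7.92 and 8.78 FPKM in control pools, again without overlap (-0.58, SE 0.18, adjusted p = 0.265). ALKBH2, which reverses alkylation of bases, had 66.0, 67.6 and 55.1 FPKM in resistant pools and 57.4, 51.5 and 49.1 FPKM in control pools, with overlap (0.25, SE 0.17, adjusted p = 0.557). EME1, a partner of the nuclease MUS81 in recombination, had 5.71, 12.1 and 3.90 FPKM in resistant pools and 3.97, 2.65 and 2.06 FPKM in control pools. Resistant 28 lay just below control 17 for EME1, and the difference was 0.98 (SE 0.37, adjusted p = 0.335). MUS81 itself had 32.5, 28.3 and 29.1 FPKM in resistant pools and 21.2, 27.2 and 19.7 FPKM in control pools, without overlap (0.40, SE 0.18, adjusted p = 0.393).

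The wider lists differed in how they were laid out in pool 18. Resistant 18 was highest for 18 of 22 recombination genes, 18 of 25 checkpoint genes, 11 of 16 Fanconi genes and 11 of 15 genes of lesion bypass and direct reversal. It was highest for 8 of 18 base excision genes, 7 of 18 nucleotide excision genes and 4 of 11 end joining genes. These were 44.4%, 38.9% and 36.4%, near the 35.4% of all genes. The recombination, checkpoint, Fanconi and bypass lists were at 68.8% to 81.8%. The further base excision genes had similar medians in every pool, 0.15, 0.18 and 0.19 in pools 17, 18 and 28, and the nucleotide excision genes had medians of -0.05, 0.16 and -0.01. In end joining, NHEJ1, which encodes the ligation factor XLF, had 11.9, 15.5 and 9.23 FPKM in resistant pools and 16.3, 15.9 and 13 FPKM in control pools. MAD2L2, a shieldin subunit that also serves polymerase zeta, had 108, 76.1 and 117 FPKM in resistant pools and 110, 132 and 120 FPKM in control pools. Each resistant library of these 2 genes lay below the control of its own pool, with differences of -0.30 (SE 0.21, limma adjusted p = 0.579) and -0.28 (SE 0.21, adjusted p = 0.602). In the Fanconi list, C17orf70, which encodes FAAP100 of the core complex, had 16.1, 21.2 and 14.6 FPKM in resistant pools and 10.6, 13.7 and 11.7 FPKM in control pools. C1orf86, which encodes the core complex protein FAAP20, had 16, 13.2 and 16.6 FPKM in resistant pools and 17.4, 22 and 22.1 FPKM in control pools. Neither had overlapping groups, and the differences were 0.48 (SE 0.19, adjusted p = 0.355) and -0.40 (SE 0.17, adjusted p = 0.383).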

How the data were processed

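Per the labels, total RNA of 6 HG3 pools was sequenced. The authors deposited FPKM, with a decimal comma in each value. The submitters' processing notes name hg19, DESeq2, HTSeq 0.6.1, Cufflinks 2.2.1 and TopHat2 2.0.4. What each tool did, the annotation and the handling of strand are not given in the sources used, so the 21 members whose exons overlap another gene in GENCODE v29 (19 with one on the opposite strand) may hold its reads. No counts were used and absolute depth is unknown; relative depth came from ratios of low values.

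A gene was tested if 3 or more of the 6 libraries had 1 FPKM or more: limma 3.58.1 in R 4.3.3 on log2(FPKM + 1), two-sided, eBayes with a trend, Benjamini-Hochberg adjustment over 11307 genes, tested on simulated data. Nothing in the labels states that the pools were independent cultures throughout, so a p-value reflects only how these libraries spread. The design names 3 pairs, so equal numbers were treated as pairs for the differences within pools. Deviations of same-numbered libraries correlated at only 0.148, 0.0892 and -0.0243. The main test had no term for the pool, and the replicate block was an alternative. GC and length trends (GENCODE v29, matched for 92.1% of tested genes) were removed by loess with a span of 0.5. Gene order and promoters came from RefSeq on GRCh38.p14. Coordinates on that build are given only for the printed promoter windows. Those of the genes are left out because the authors' build was hg19.

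Members and lists were chosen with earlier results of these data known. The rule for members given in full took the smallest p per pathway group, those of at least 0.5 with 1 sign in all 3 pools, and the largest differences within each pool, 19 members; the other 22 and the printed promoters were chosen after their values were seen. From each further list the 2 genes of smallest p were taken; 2 genes that this rule named are not reported here.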

Additional observations from a re-analysis of the deposited data

How the results depend on the processing

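Without 1 library in turn or without 1 pool in turn, between 3 and 18 of all genes passed. Between 1 and 10 of 41 members had an unadjusted p under 0.05, beside 4.82% to 23.3% of all genes. The highest values came without pool 18 for genes passing and without resistant 18 for the members and the share of all genes. No member passed under these settings. With limma's weights 301 of 11307 genes and 1 of 41 members (PRKDC) passed. At an unadjusted p under 0.05 there were then 7 of 41 members, beside 26.5% of all genes. With GC and length trends removed 2 genes passed, and 10 members had resistant 17 and 28 below all controls. With the replicate block 3 genes and 0 members passed, and with the replicate block and these trends removed 0 genes passed; the block changed no other call. The cause of these shifts was not tested.

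With limma's weights the difference turned to -0.19 for CHEK1, -0.05 for CHEK2, -0.36 for FANCD2, -0.40 for FANCI, -0.04 for PMS2 and -0.07 for UNG. That of FANCD2 was -0.00061 after a median shift and -0.0011 after quantile normalization. Leaving out 1 library or pool moved the difference of CHEK1 between -0.28 and 0.72, CHEK2 between -0.17 and 0.44, FANCD2 between -0.42 and 0.28, and FANCI between -0.48 and 0.52. It moved H2AFX between -0.13 and 0.56, MSH3 between -0.32 and 0.03, PMS2 between -0.04 and 0.19, and RPA1 between -0.75 and 0.01. It moved RPA2 between -0.002 and 0.29, UNG between -0.21 and 0.85, and XPA between -0.03 and 0.57. The other 8 members given in full, among them APEX1, XRCC4, ERCC5 and PRKDC, kept their direction under all 19 alternative settings. The ranking of libraries, checked after the data were seen, left 27 to 30 members highest in resistant 18 under each scaling. With 1 library per pool and group, and no counts, neither the error within a pool nor the counting error of low genes such as XRCC2 could be estimated.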
